A study of Arabidopsis thaliana with 4 samples.

Results

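The ferritin genes of Arabidopsis thaliana were followed by RNA sequencing in leaves of plants in which local leaves had been given Dox or water. The family has 4 loci, FER1 (AT5G01600), FER2 (AT3G11050), FER3 (AT3G56090) and FER4 (AT2G40300), which were taken by locus from a table of 32982 genes. All 4 were present, and all 4 were among the 19403 genes kept for testing. There were 4 groups. Control local and control systemic are the local and the systemic leaves of plants whose local tissue was given water. Dox local and Dox systemic are the same leaves of plants whose local tissue was given Dox at 25 µm/g, in the unit the labels use. The labels name no mutant allele, accession or age, do not spell out Dox, and give neither the hour of harvest nor the time since treatment. All plants grew under long days on agar plates that contained sucrose. The series title describes Dox as a mitochondrial stress and asks what follows in systemic tissue. Each group holds 3 columns of read counts, treated here as libraries 1, 2 and 3. Nothing says that these came from separate plants, so the p-values measure the spread between libraries, which may be technical.

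Ferritin is a hollow protein shell in which iron is oxidised and stored in a form that does not feed radical chemistry. In Arabidopsis the 4 proteins carry plastid targeting sequences, FER4 also reaches mitochondria, and FER2 is known mainly from seeds while FER1, FER3 and FER4 are the leaf forms. Their transcripts accumulate when iron is in excess and are repressed when iron is scarce. That repression involves the basic helix-loop-helix factors ILR3 and PYE, and BTS is an iron-binding ubiquitin ligase that removes ILR3 and its relatives. Transcripts of BTS, PYE, the IMA peptides and the factors BHLH38, BHLH39, BHLH100 and BHLH101 accumulate when iron is scarce, which makes them readouts of the opposite state to ferritin.

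Sequences upstream of the coding region are shown first, namely the element tied to this control in FER1 and the G-box matches of all 4 genes. They were read from the RefSeq TAIR10.1 assembly by locus and are written from 5′ to 3′ on the strand of the gene. In FER1 the capitals mark CACGAG, the core of its iron-dependent regulatory sequence, the element needed for repression of that gene under low iron.
FER1, chr5:229763-229792 on the minus strand: ggatgtagCACGAGgccgccacacgcccct
In the next 4 sequences the capitals mark the G-box CACGTG, the kind of site that basic helix-loop-helix factors bind.
FER1, chr5:229720-229749 on the minus strand: atatccaccctcCACGTGgatctcaatcca
FER2, chr3:3463496-3463525 on the plus strand: ttctcctctttcCACGTGtccaacaaacag
FER3, chr3:20816094-20816123 on the minus strand: atcgtatccatcCACGTGtcaacaatccac
FER4, chr2:16833346-16833375 on the minus strand: atctcgtacgtaCACGTGtctctcatccgc
All 4 genes held a G-box within the 600 bases before the start codon, against 10.3% of 27561 protein-coding genes searched in the same window on both strands. The G-box began 143 bases before the start codon in FER1 and in FER2, 127 in FER3 and 149 in FER4. In FER1 and FER2 these bases lie inside the annotated 5′ leader, which is 457 and 174 bases long, and in FER3 and FER4 they lie 76 and 69 bases before the annotated transcript start.

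The family differed in its other motifs. CACGAG was found in FER1 alone, 190 bases before the start codon, and in 10.9% of all genes. The phosphate response site GNATATNC was found in FER1, 227 bases before the start codon, and in FER2, 590 bases before it, against 11.2% of genes. The evening element core AATATCT was found in FER3, 198 bases before the start codon, against 20% of genes. The core of the mitochondrial dysfunction motif, through which mitochondrial stress acts on nuclear genes in Arabidopsis, was searched in a single spelling. That spelling was in none of the 4 windows and in 1.7% of genes. Other spellings of the core were not searched, so absence of the motif from these windows is not shown. None of these motifs overlapped another as searched here, and a match of letters is a description of the window and not evidence of binding.

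The 4 genes have the same layout, with 8 exons each and coding regions of 768 bases in FER1, 762 in FER2, and 780 in FER3 and FER4. Their aligned coding regions were 67.7% to 78.4% identical, with FER3 and FER4 the closest pair. The longest run of bases shared by 2 transcripts was 32, in FER3 and FER4, and it was 16 or 17 in the other pairs. How reads that match several genes were counted is not given in the sources used here. FER1 lies opposite an antisense long noncoding RNA, AT5G01595, over 1334 bases, and the strand setting of the counting is not given either. AT5G01595 had 5 to 48 reads in a library, against 296 to 2512 for FER1. FER4 overlaps its same-strand neighbour AT2G40290 by 118 bases, so reads from that stretch cannot be told apart.

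Depth was even, with 18981328 to 21380652 counts per library. The leaf label held, since 6 leaf photosynthesis genes summed to 23876 to 36048 CPM (counts scaled to library size) in every library. Seed markers, which matter for FER2, were low: 4 of 11 were at 0 in every library and the sum reached at most 7.91 CPM. Root markers summed to 11.7 to 248 CPM, with 2 of 6 at 0 in every library. In control local leaves most of the sum was PYK10, a beta-glucosidase, at 179 to 239 CPM. PYK10 reached at most 77.4 CPM in the other groups. SHR, another of these markers, was above PYK10 in control systemic 2, Dox systemic 1 and Dox systemic 3, at 9.75, 11.8 and 10.2 CPM. Library 1 of Dox local stood apart, with 6 heat shock genes summing to 740 CPM against 14.0 to 72.2 CPM in the other libraries. It also lay at the positive end of the first principal component (75.4), together with control local 3 (76.3), Dox local 3 (43.9) and control systemic 3 (37.9), while the other libraries lay between -65.2 and 8.19. The part of these differences in the results below was not tested, and results are given with and without those libraries where they decide a value. CPM is scaled by the TMM method throughout, and in bulk leaf RNA fewer cells of a type and less RNA per cell cannot be told apart.

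FER1, the member under the iron-dependent regulatory sequence, stood at 40.8, 34.1 and 18.5 CPM in the 3 control local libraries, in the order 1, 2, 3. It stood at 49.3, 12.9 and 26.8 CPM in control systemic leaves, at 74.8, 31.5 and 17.3 CPM in Dox local leaves, and at 88.6, 117 and 37.6 CPM in Dox systemic leaves. Libraries 1 and 2 of Dox systemic were above every other library, while library 3 lay inside the control range. FER1 was the most uneven of the 3 expressed members, with a coefficient of variation of 36.9% to 72.7% within a group. The median gene varied by 16.1% to 24.2% within a group.

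FER3, a second plastid ferritin of leaves, stood at 26.9, 32.1 and 45.0 CPM in control local leaves and at 52.4, 36.1 and 52.2 CPM in control systemic leaves. In Dox local leaves it stood at 104, 42.7 and 33.0 CPM, and in Dox systemic leaves at 61.8, 68.2 and 81.5 CPM. Every Dox systemic library was above every control systemic library. The Dox local group was set apart by library 1 alone, the library with the high heat shock genes, and its other libraries lay within the control local range.

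FER4, the member that also reaches mitochondria, stood at 17.0, 13.1 and 8.13 CPM in control local leaves and at 26.2, 11.4 and 17.4 CPM in control systemic leaves. In Dox local leaves it stood at 21.3, 13.5 and 7.23 CPM, and in Dox systemic leaves at 28.8, 36.1 and 34.8 CPM. The 3 Dox systemic libraries were the 3 highest of the 12 and lay close together, with a coefficient of variation of 11.8% against 34.9% to 50.4% in the other groups.

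FER2, the seed ferritin, was close to absent in these leaves, with 79 reads in all 12 libraries together and 0 to 17 in any one. It had 0, 4 and 8 reads in control local leaves, 6, 2 and 13 in control systemic, 3, 9 and 4 in Dox local, and 11, 2 and 17 in Dox systemic leaves. The library at 0 allows up to 0.143 CPM, the level of 3 counts, for counting error only. The groups overlapped throughout. FER2 was kept for testing through 3 libraries above 0.498 CPM, here computed without the TMM scaling. They were control systemic 3, Dox systemic 1 and Dox systemic 3, with 13, 11 and 17 reads. Its tests say little at this depth, and its values are given for completeness.

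**Figure D1:**
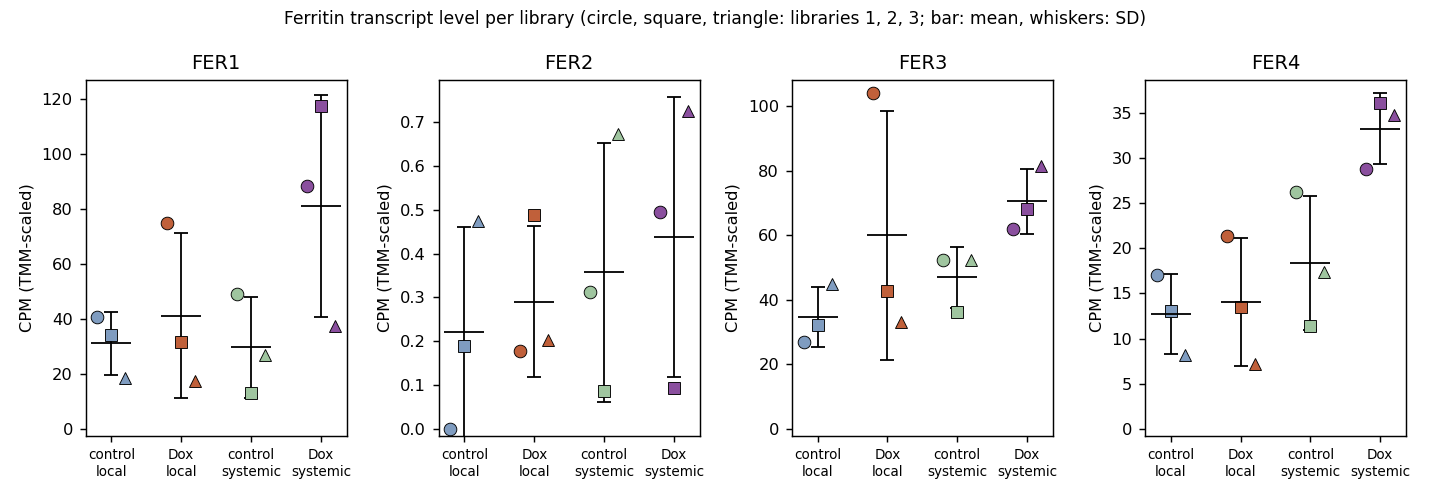
Level of each ferritin gene in CPM (vertical axis, linear, its own scale for each gene) in the 4 groups. Symbols are libraries 1, 2 and 3, the bar is the mean and the whiskers are the SD; the Dox systemic libraries of FER4 (28.8 to 36.1 CPM) sit above all other libraries, while FER1 spreads from 37.6 to 117 CPM in the same group.

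Levels of different members can be compared per transcript length, here as RPKM, the CPM per kilobase of the annotated transcript. In control local leaves the mean was 27.2 ± 7.27 RPKM (SD, n = 3) for FER3, 21.9 ± 8.07 for FER1, 10.2 ± 3.55 for FER4 and 0.193 ± 0.208 for FER2. In Dox systemic leaves it was 57.1 ± 28.5 RPKM for FER1, 55.2 ± 7.87 for FER3, 26.6 ± 3.13 for FER4 and 0.382 ± 0.279 for FER2. FER1 and FER3 did not separate beyond their spread, since FER1 was above FER3 in 3 of the 12 libraries, at 1.36 times in control local 1, 1.29 in Dox systemic 1 and 1.55 in Dox systemic 2. FER2 was below the other members in every library.

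The 4 genes together gave 55.1 to 63.4 RPKM in control local leaves, 46.5 to 97.0 in control systemic leaves, 44.0 to 151 in Dox local leaves and 119 to 165 in Dox systemic leaves. The Dox systemic range lay above both control ranges, and Dox local 1 alone reached into it. The make-up of the pool varied between libraries: FER3 was 32.4% to 63.9% of it, FER1 19.5% to 50.1%, FER4 11.3% to 23.4% and FER2 at most 0.789%.

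**Figure D2:**
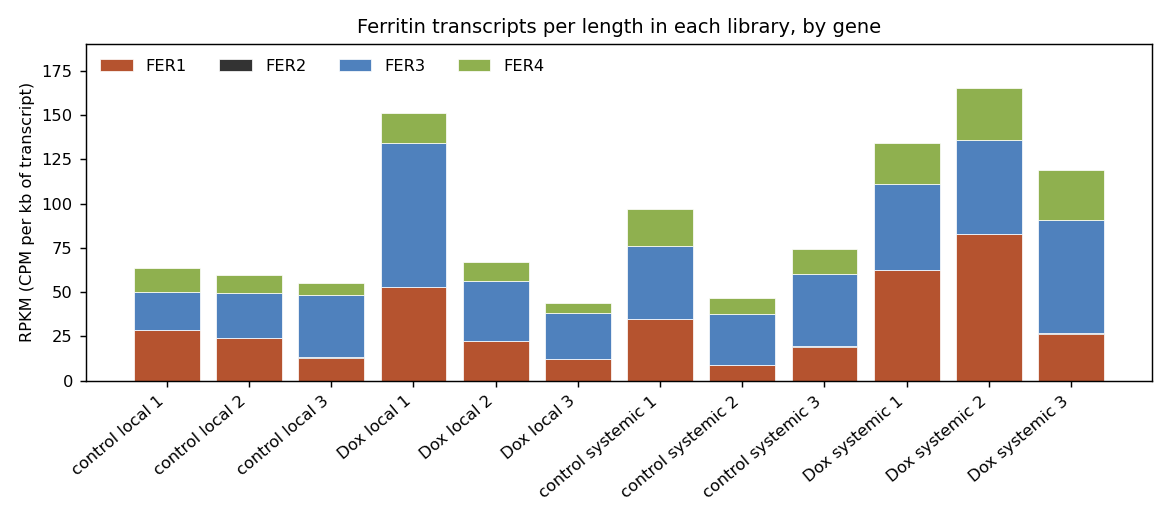
Ferritin transcripts per length (vertical axis, RPKM) in each of the 12 libraries, stacked by gene. The Dox systemic bars reach 119, 134 and 165 RPKM and the control bars 46.5 to 97.0 RPKM; Dox local 1 stands at 151 RPKM beside 66.8 and 44.0 RPKM in the other Dox local libraries.

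Whether Dox on local leaves went with a difference in untreated leaves was asked by setting Dox systemic against control systemic. Fitted levels were higher in Dox systemic leaves by 2.74-fold for FER1, 1.81-fold for FER4 and 1.50-fold for FER3. FER2 was fitted 1.25-fold higher, but it was kept for testing partly through Dox systemic libraries 1 and 3. None of the 4 genes passed edgeR's quasi-likelihood test after adjustment over all genes, and none passed in DESeq2 or limma. In edgeR 0% of all genes passed this comparison, and DESeq2 passed 0.695% of those it tested. The libraries did not overlap for FER3 and FER4, with every Dox library higher, as was so for 7.96% of all genes tested. For FER1 2 of the 3 Dox libraries lay above all controls.

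In edgeR the FER1 difference was 1.45 on the log2 scale (SE 0.61, 95% confidence interval 0.11 to 2.80, unadjusted p = 0.0366, adjusted p = 0.554). It was the only member under an unadjusted p of 0.05, a level reached by 8.61% of all genes. The FER4 difference was 0.86 (SE 0.40, interval -0.01 to 1.73, edgeR adjusted p = 0.589), and that of FER3 was 0.59 (SE 0.37, interval -0.23 to 1.40, edgeR adjusted p = 0.677). FER2 gave 0.32 with an interval of -1.83 to 2.47. Placed among all genes by signed log2 difference, FER1 was above 99.0% of them, FER4 above 96.3%, FER3 above 92.1% and FER2 above 82.1%. Genes fitted lower with Dox count as below them here, however large their difference.

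The control systemic libraries disagreed among themselves. Control systemic 2 had the lowest FER1, FER3 and FER4 of its group and control systemic 1 the highest. Without control systemic 2 the log2 difference of FER1 was 1.09, that of FER3 0.43 and that of FER4 0.61. Without control systemic 1 they were 2.03, 0.69 and 1.21. The sign held for FER1, FER3 and FER4 in all 12 fits that each left out 1 library. With the 4 libraries at the positive end of the first component left out they were 1.39, 0.67 and 0.83, a set chosen after the data had been seen. The lowest adjusted p under any alternative was 0.316 for FER1, 0.319 for FER3 and 0.388 for FER4.

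Other values moved with the systemic Dox libraries. The clock gene PRR7 stood at 18.1, 8.60 and 5.33 CPM in Dox systemic leaves against 65.3, 43.0 and 52.1 CPM in control systemic leaves, a log2 difference of -2.32 (SE 0.64, edgeR adjusted p = 0.451, DESeq2 adjusted p = 0.0293). The 9 clock genes listed summed to 202 to 271 CPM in Dox systemic and 373 to 438 CPM in control systemic leaves. The 6 leaf photosynthesis genes were all fitted lower in Dox systemic leaves, with sums of 23876 to 28336 CPM against 30346 to 36048 CPM. The 4 flower markers summed to 11.8, 3.88 and 14.3 CPM in Dox systemic leaves against 2.24 to 3.09 CPM in control systemic leaves. Their main member was SEP3, a floral organ factor, at a log2 difference of 2.11 (SE 0.83, edgeR adjusted p = 0.54). The heat shock genes HSP70 and HSP90.1 were lower with no overlap, as was so for 1632 of all 19403 genes tested. Their log2 differences were -1.52 (SE 1.10) and -0.90 (SE 0.85), with edgeR adjusted p-values of 0.723 and 0.799. Without control systemic 3 they stood at -0.64 and -0.45. The part of these differences in the ferritin values was not tested.

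At the site of treatment, where Dox local was set against control local, all 4 genes were also fitted higher with Dox. The values of FER1, FER3 and FER4 rested on 1 library. The fitted difference was 1.73-fold for FER3, 1.36-fold for FER2, 1.32-fold for FER1 and 1.10-fold for FER4, and the libraries overlapped for all 4 genes, while they did not overlap for 7.54% of all genes. None passed edgeR after adjustment (0% of all genes did), none passed DESeq2 (0.0632% did) or limma, and none was under an unadjusted p of 0.05 in edgeR (4.72% were). FER3 came nearest, at 0.79 on the log2 scale (SE 0.37, interval -0.03 to 1.61, edgeR adjusted p = 0.902). FER1 gave 0.40 (SE 0.60, interval -0.92 to 1.73, edgeR adjusted p = 0.924) and FER4 0.14 (SE 0.40, interval -0.74 to 1.01, edgeR adjusted p = 0.957).

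The local values of FER1, FER3 and FER4 rested on Dox local 1. FER2 had 3 reads in that library, and its lowest value was -0.16, without control local 1. Without Dox local 1 the log2 difference was 0.13 for FER3, -0.35 for FER1 and -0.30 for FER4. With control local 3 left out as well, it was 0.32 for FER3, -0.65 for FER1 and -0.57 for FER4. The heat shock genes that marked Dox local 1 had a median log2 difference of 3.15 over the 5 tested members in this comparison. The part of that library's state in the ferritin values was not tested beyond leaving it out.

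**Figure D3:**
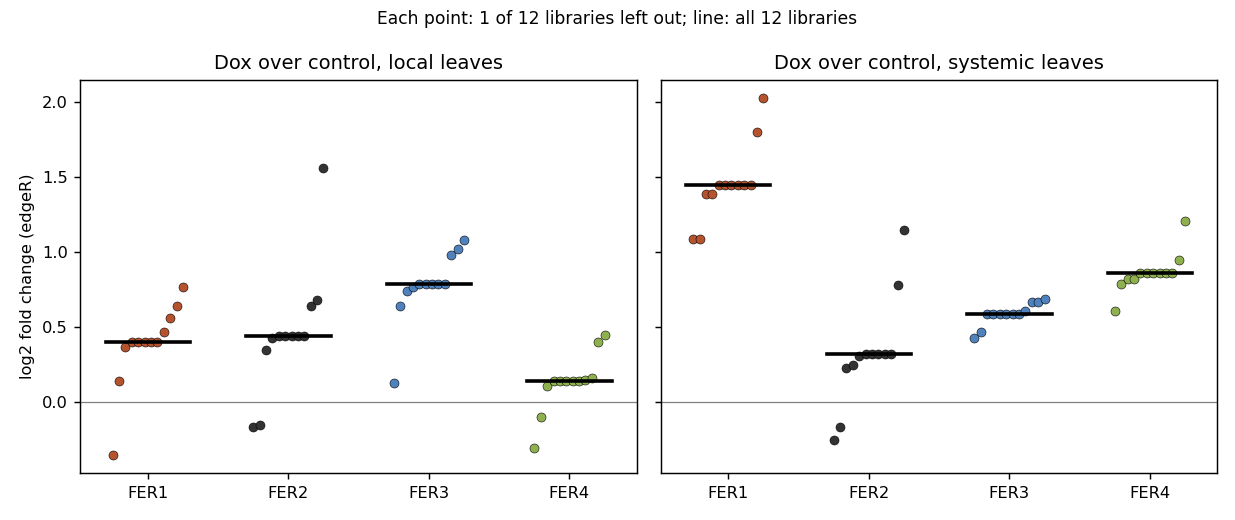
Log2 fold change of each ferritin gene (vertical axis, edgeR) for Dox over control in local leaves (left) and systemic leaves (right); each point leaves out 1 of the 12 libraries and the line is the fit to all 12. In systemic leaves FER1 runs from 1.09 to 2.03, FER4 from 0.61 to 1.21 and FER3 from 0.43 to 0.69, all above 0, while in local leaves FER1 and FER4 reach -0.35 and -0.30.

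The difference between leaf positions was asked within each set of plants. Among control plants the systemic over local log2 difference was -0.07 for FER1, 0.71 for FER2, 0.44 for FER3 and 0.52 for FER4, with edgeR adjusted p-values of 0.829 to 0.989. No member was under an unadjusted p of 0.05 (6.88% of all genes were), none passed edgeR, DESeq2 or limma after adjustment (0% of all genes passed in edgeR, 0.268% in DESeq2), and the libraries overlapped for each gene, against 13% of genes whose libraries did not.

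Among Dox plants the libraries of the 2 positions did not overlap for FER4. All 3 systemic libraries (28.8, 36.1 and 34.8 CPM) were above all 3 local ones (21.3, 13.5 and 7.23 CPM), which was so for 11.9% of all genes. The log2 difference was 1.25 (SE 0.40, interval 0.37 to 2.13, 2.37-fold, unadjusted p = 0.00975, edgeR adjusted p = 0.22), and the adjusted p ranged from 0.0764 in DESeq2 to 0.533 over the alternatives. FER1 gave 0.98 (SE 0.61, edgeR adjusted p = 0.393), FER2 0.59 and FER3 0.24, and their libraries overlapped. No member passed after adjustment in edgeR (0.00515% of all genes did), DESeq2 (2.89%) or limma. FER4 was the 1 member under an unadjusted p of 0.05 in edgeR, a level reached by 17.9% of genes. This comparison and the systemic Dox comparison share the Dox systemic libraries. Among the iron regulators, 3 of 18 passed DESeq2 here and none passed edgeR. They were BTS at -1.38 (SE 0.38, DESeq2 adjusted p = 0.0221), BHLH101 at -1.99 (SE 0.55, DESeq2 adjusted p = 0.0224) and IMA2 at -1.99 (SE 0.56, DESeq2 adjusted p = 0.0224), each lower in systemic leaves, with an edgeR adjusted p of 0.217 each. Libraries of 7 of the 18 regulators did not overlap and were lower in systemic leaves, as was so for 2284 of all 19403 genes tested. Of the genes that move iron, MIT1, a mitochondrial iron transporter, passed DESeq2 at 0.63 (SE 0.17, DESeq2 adjusted p = 0.0467, edgeR adjusted p = 0.217).

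Whether Dox went with different ferritin values in the 2 positions was tested as an interaction, the local minus the systemic Dox difference. It was -1.05 for FER1 (SE 0.85, interval -2.93 to 0.82, edgeR adjusted p = 0.836) and -0.72 for FER4 (SE 0.56, interval -1.96 to 0.51, edgeR adjusted p = 0.833). For FER3 it was 0.20 and for FER2 0.12. No member was under an unadjusted p of 0.05, against 5.2% of all genes, and none passed edgeR, DESeq2 or limma (0% of genes passed in edgeR and 0.004% in DESeq2). A difference between the positions in the response of the ferritin genes was thus not shown, and the intervals leave room for several-fold differences in FER1.

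**Figure D4:**
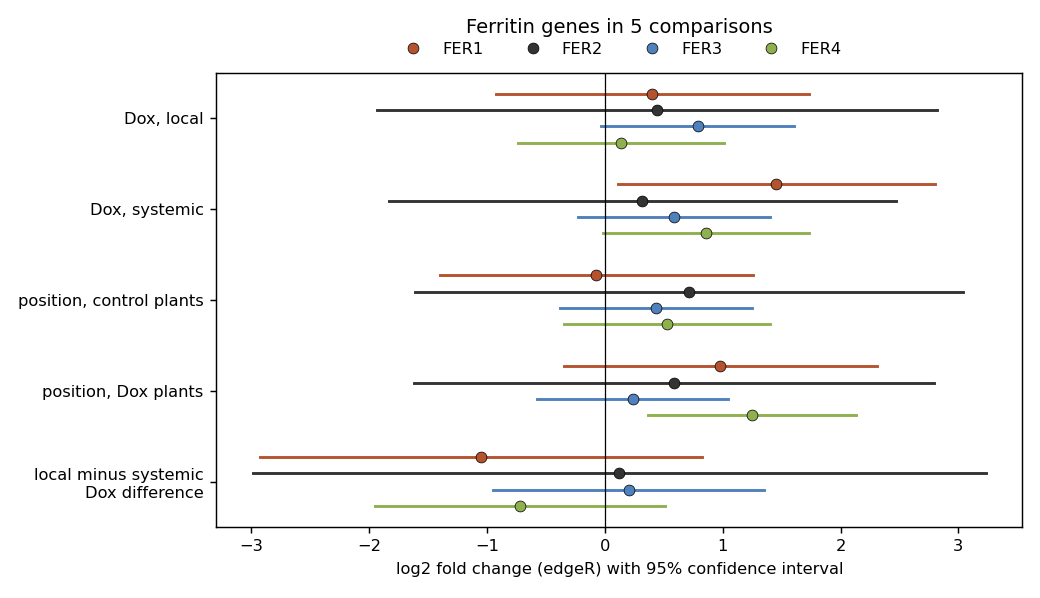
Log2 fold change (horizontal axis, edgeR) of the 4 ferritin genes in the 5 comparisons, with 95% confidence intervals. The intervals of FER1 in systemic leaves (0.11 to 2.80) and of FER4 between positions of Dox plants (0.37 to 2.13) lie above 0 before adjustment, and neither passed after it; FER2 has the widest intervals.

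The members also varied together from library to library. FER1 and FER4 had a Pearson r of 0.821 and a Spearman rho of 0.846 over the 12 libraries on log2(CPM + 1), with permutation p-values adjusted over 6 pairs of 0.00714 and 0.00582. The r was 0.786 without the 2 libraries farthest from the median of FER1, and 0.836 after the group means were taken out. FER3 and FER4 gave 0.675 and 0.748 (permutation adjusted p = 0.0518 and 0.0204), with 0.869 without the 2 farthest libraries and 0.534 within groups. FER1 and FER3 gave 0.601 and 0.573 (permutation adjusted p = 0.0789 and 0.111). FER2 gave r from -0.0805 to 0.39 with the other members, none under 0.05 after adjustment. All values come from the same libraries and scaling, and these tests take the libraries as independent, which the labels do not state.

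Some iron-shortage genes varied opposite to FER4. Among 18 iron regulators set against each member (54 relations), r was negative for 11 with FER1, 11 with FER3 and 10 with FER4. PYE gave positive values of 0.184, 0.146 and 0.205. The largest positive r with FER1, FER3 and FER4 was that of ILR3, at 0.612, 0.687 and 0.458 (permutation adjusted p = 0.122, 0.0799 and 0.268). Of the 54 relations 3 had a permutation p under 0.05 for Pearson's r after adjustment, and all 3 were negative relations with FER4. The strongest was BTS, the iron-binding ubiquitin ligase, at r = -0.926 and rho = -0.909 (permutation adjusted p = 0.00432 and 0.00999). That r was -0.917 without the 2 libraries farthest in BTS and -0.831 within groups. BHLH100 gave r = -0.854 (permutation adjusted p = 0.017, -0.833 within groups) and BHLH101 r = -0.846 (permutation adjusted p = 0.0187, -0.631 within groups); both are transcription factors of the iron shortage response, and these names were picked for their relation. FER1 with BTS gave r = -0.728 and rho = -0.748 (permutation adjusted p = 0.0649 and 0.0474), and -0.737 within groups. By rho, 5 relations of FER4, 3 of FER1 and none of FER3 were under 0.05 after adjustment. The permutations moved libraries across groups. How many of all genes relate to a ferritin gene this closely was not counted, so whether these counts are more than usual is not known.

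Library by library, BTS stood at 275, 367 and 451 CPM in control local libraries 1, 2 and 3, in which FER4 stood at 17.0, 13.1 and 8.13 CPM. It stood at 142, 475 and 235 CPM in control systemic leaves, in which FER4 stood at 26.2, 11.4 and 17.4 CPM. It stood at 346, 339 and 507 CPM in Dox local leaves and at 156, 150 and 153 CPM in Dox systemic leaves. In both control groups the order of the 3 libraries by BTS was the reverse of their order by FER4. In Dox local leaves it was not quite so, since library 2 had the lowest BTS and library 1 the highest FER4 (21.3, 13.5 and 7.23 CPM). In Dox systemic leaves BTS differed little, and FER4 stood at 28.8, 36.1 and 34.8 CPM. The 3 Dox systemic libraries joined control systemic 1 at the low end of BTS.

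**Figure D5:**
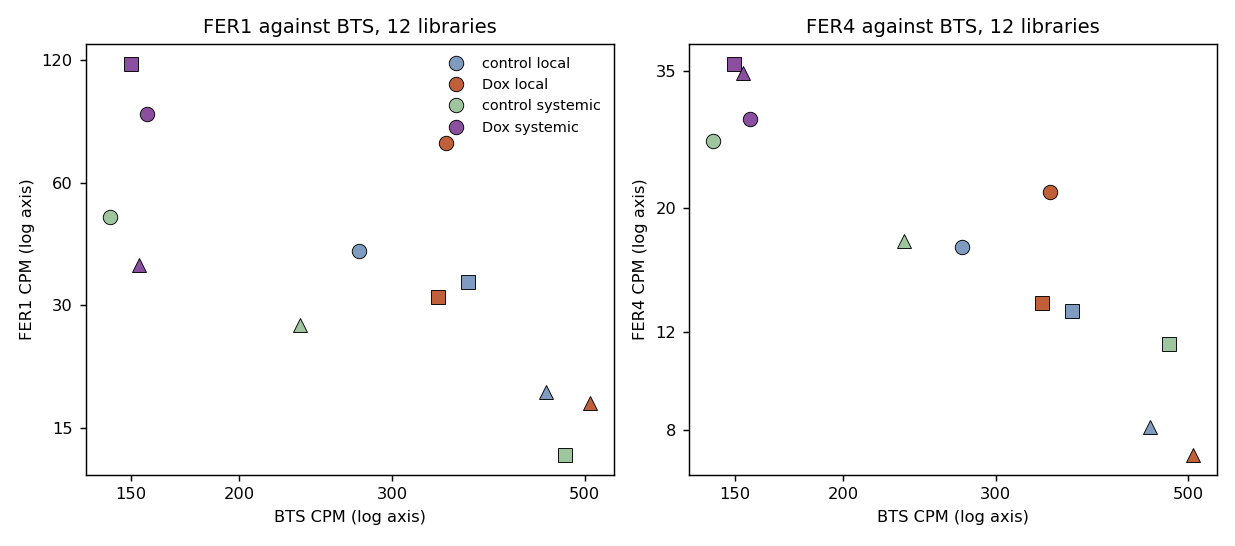
Ferritin level against BTS level, each in CPM on a log axis, 1 point for each of the 12 libraries, coloured by group. FER4 lies along a falling line (r = -0.926 on log2 values) with the Dox systemic libraries at the end of low BTS and high FER4.

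Among the iron regulators themselves, 7 of 18 were fitted higher and 11 lower in Dox systemic than in control systemic leaves, with a median log2 difference of -0.19 against -0.001 over all genes. None passed edgeR or DESeq2 after adjustment, and 5 were under an unadjusted p of 0.05 in edgeR, against 8.61% of all genes. BHLH100 stood at 7.97, 5.80 and 6.02 CPM in Dox systemic and at 5.57 CPM in library 1 and 58.8 CPM in library 2 of control systemic leaves, with library 3 between them and above every Dox systemic library. Its log2 difference of -1.91 was -0.25 without control systemic 2. BHLH38 and BHLH39, factors of the same group, went from -1.80 to -0.45 and from -1.45 to 0.09 without that library, and BTS from -0.89 (SE 0.37, edgeR adjusted p = 0.552) to -0.30. The same library was the one with the lowest FER1, FER3 and FER4 of its group. PYE, which represses iron storage genes together with ILR3, stood at 23.5, 14.5 and 23.7 CPM in Dox systemic against 9.22, 14.5 and 11.8 CPM in control systemic leaves, with library 2 of either group at nearly the same level. Its log2 difference was 0.80 (SE 0.23, unadjusted p = 0.00544, edgeR adjusted p = 0.455), and the lowest adjusted p over the alternatives was 0.117.

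In local leaves 13 of the 18 regulators were fitted higher and 5 lower with Dox, with a median log2 difference of 0.23 against 0.02 over all genes. None passed edgeR or DESeq2, and 5 were under an unadjusted p of 0.05, against 4.72% of all genes. IMA1, a short peptide that promotes iron uptake, stood at 26.9, 28.1 and 50.5 CPM in Dox local against 4.01, 7.12 and 20.4 CPM in control local leaves. Its log2 difference was 1.75 (SE 0.73, edgeR adjusted p = 0.902), and it was 1.36 to 2.66 when single libraries were left out. IMA2, a peptide of the same family, gave 1.63 (SE 0.56, edgeR adjusted p = 0.902), from 24.0, 42.6 and 51.8 CPM against 5.59, 12.4 and 20.3 CPM. The Dox libraries lay above the controls for both peptides, as was so for 803 of all 19403 genes tested. Of the 18 regulators 4 were higher with no overlap in local leaves and 1 was lower with no overlap. IMA3, the third peptide, gave 1.05 (SE 0.49, edgeR adjusted p = 0.902), and its Dox local 1 library (10.4 CPM) lay below all 3 controls, which reached 18.9 CPM, while the other libraries lay above them (37.0 and 45.0 CPM).

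The 8 factors listed upstream of ferritin genes, acting directly or through another factor, showed no common direction. Some of them are also in the previous list. There were 3 fitted higher and 5 lower in either Dox comparison, with medians of -0.03 in local and -0.09 in systemic leaves, and none passed edgeR or DESeq2 in these comparisons. TIC, a clock protein that represses ferritin genes in Arabidopsis, gave -0.50 in local leaves (SE 0.28), where PHR1, the main phosphate response factor, gave -0.30 (SE 0.16) and ILR3 0.30 (SE 0.18), each with an edgeR adjusted p of 0.902. PHL1, a relative of PHR1, gave -0.29 in systemic leaves (SE 0.25, edgeR adjusted p = 0.783). Of 7 phosphate starvation genes, listed because FER1 answers to phosphate supply, 5 were tested. In local leaves 3 were fitted higher and 2 lower, and in systemic leaves 1 and 4. The one fitted higher in systemic leaves was PAP17, an acid phosphatase, at 1.18 (SE 0.55, edgeR adjusted p = 0.589).

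Genes that move or bind iron were spread around 0. Of 28 listed, 19 were tested: 11 were fitted higher and 8 lower in local leaves, 12 and 7 in systemic leaves, with medians of 0.14 and 0.05, and none passed edgeR or DESeq2. VTL2, a member of the vacuolar iron transporter-like family, stood at 3.60, 1.82 and 0.683 CPM in Dox systemic against 0.469, 0.435 and 0.310 CPM in control systemic leaves. Its log2 difference was 2.31 (SE 0.78, unadjusted p = 0.0121, edgeR adjusted p = 0.488), at a low level. YSL1, a carrier of iron bound to nicotianamine, gave 0.96 in systemic leaves (SE 0.61, edgeR adjusted p = 0.678), and NAS1, a nicotianamine synthase, 0.73 (SE 0.90, edgeR adjusted p = 0.853; -0.89 without Dox systemic 2). In local leaves NAS4, of the same enzyme family, gave 1.06 (SE 0.91), FRO7, the chloroplast ferric reductase, 0.60 (SE 0.31) and FRO6, a ferric reductase of leaves, 0.50 (SE 0.30), each with an edgeR adjusted p of 0.902.

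Iron-sulphur cluster assembly is the main use of iron in both organelles that hold ferritin. Of 13 mitochondrial assembly genes 11 were tested, with 6 fitted higher and 5 lower in local leaves and 8 and 3 in systemic leaves. Of 11 plastid assembly genes 10 were tested, and all 10 were fitted higher in local leaves, as were 10119 of all 19403 genes. The median there was 0.19 against 0.02 over all genes, and the smallest value was 0.0085 (SE 0.19). In systemic leaves 3 of these plastid genes were fitted higher and 7 lower. None of either list passed edgeR or DESeq2 in the Dox comparisons. In local leaves, ISD11, a partner of the mitochondrial cysteine desulphurase, gave 0.43 (SE 0.18, edgeR adjusted p = 0.902). There the plastid carriers HCF101 and NFU1 gave 0.39 (SE 0.17) and 0.37 (SE 0.12), each with an edgeR adjusted p of 0.902. The other members named by size there were MFDX1, a mitochondrial ferredoxin, at -0.20 (SE 0.26), INDH, a mitochondrial carrier, at 0.16 (SE 0.41, -0.13 without Dox local 1), and NEET, a plastid iron-sulphur protein, at 0.55 (SE 0.77, 0.01 without Dox local 1). In systemic leaves INDH gave -0.34 (SE 0.41, edgeR adjusted p = 0.848), NFS1, the mitochondrial cysteine desulphurase, 0.28 (SE 0.16, edgeR adjusted p = 0.655) and NFU5, a mitochondrial carrier, 0.19 (SE 0.22, edgeR adjusted p = 0.851). On the plastid side NEET gave -0.64 there (SE 0.75, edgeR adjusted p = 0.847) and SUFC, the ATPase of the assembly complex, -0.23 (SE 0.11, edgeR adjusted p = 0.603).

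SUFB, the scaffold subunit of plastid cluster assembly, was among the genes most like FER4 and FER1 over the libraries. It stood at 80.6, 81.2 and 75.6 CPM in Dox systemic leaves against 62.9, 33.5 and 51.9 CPM in control systemic leaves. Every Dox library was thus higher, as was so for 7.96% of all genes tested. The log2 difference was 0.68 (SE 0.27, unadjusted p = 0.0274, edgeR adjusted p = 0.54). Of the 10 plastid assembly genes tested, 1 (SUFB) was higher with no overlap in this comparison, and 3 were lower with no overlap. By Pearson r over the 12 libraries among 12311 genes at a mean of 10 CPM or more, SUFB (named ABCI8 in the annotation) was the gene most like FER4 (0.88) and the fourth most like FER1 (0.86). The others most like FER4 were SAPX, a stromal ascorbate peroxidase (0.87), and RTNLB3, RCAR1 and DPMS1 (0.86 each). The gene most like FER1 was OMT1, a methyltransferase of phenylpropanoid compounds (0.91), followed by AT3G20510 and AT5G20120 (0.87 each) and then SUFB and AT4G22750 (0.83). FER3 had other neighbours, SYP132 and KIS (0.90 each), RABA1b (0.89), AT2G04520 (0.88) and SMU1 (0.87). These are the highest of 12311 values from 12 libraries in 4 groups and are given as a description.

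The 14 enzymes and carriers that use iron were fitted higher in 11 cases and lower in 3 in local leaves, with a median of 0.27 against 0.02 over all genes. In systemic leaves 7 were fitted higher and 7 lower, with a median of -0.01. None passed edgeR or DESeq2. In local leaves the ferredoxin FD1 gave 0.79 (SE 0.58, edgeR adjusted p = 0.902; 1.63 without control local 3 and 0.29 without Dox local 3). NIR1, the nitrite reductase of plastids, gave 0.64 (SE 0.32) and FD2, the main leaf ferredoxin, 0.56 (SE 0.23), each with an edgeR adjusted p of 0.902. In systemic leaves FD1 gave -0.83 (SE 0.58, edgeR adjusted p = 0.714; -0.42 without control systemic 3). The plastid iron superoxide dismutases FSD2 and FSD1 gave -0.55 (SE 0.22, edgeR adjusted p = 0.545) and 0.53 (SE 0.30, edgeR adjusted p = 0.642) there.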

How the data were processed

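Transcripts were counted in 12 libraries of 4 groups. The deposited values are raw read counts per gene, not normalized by the authors. Per the submitters' processing notes the tools included HISAT2, featureCounts 1.6.3, Trimmomatic 0.39 and FastQC 0.11.9; the sources used here give no build or annotation. Counts were tested with edgeR 4.0.16 (R 4.3.3; quasi-likelihood test, TMM, filterByExpr at a minimum count of 10, 4 group means, 8 residual degrees of freedom), with Benjamini-Hochberg adjustment over 19403 genes and a threshold of 0.05. DESeq2 1.42.0 and limma 3.58.1 (voom) were alternatives, beside other scalings, no filter, a replicate block and leaving out libraries. The test was checked on simulated counts. Columns of 1 group differed beyond counting noise (median chi-square per degree of freedom 8.75 to 18.7). Of 32982 identifiers 32548 matched RefSeq TAIR10.1, which gave lengths, names and sequences. Correlations used 100000 permutations. The members and gene lists were chosen with earlier results of these data known. Genes named from an iron list are the 3 with a mean of 1 CPM or more and the largest absolute log2 fold change in each Dox comparison, with fewer from the other lists, and for each expressed member the 5 most alike genes; BHLH101 and MIT1 were named outside that rule, after their values were seen, and RBCS1A and SUFC also for their opposite signs in the 2 positions.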

Additional observations from a re-analysis of the deposited data

Results flagged for a closer look

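In 2 genes of the lists used here every Dox library was above every control library in local leaves and below every control library in systemic leaves. SUFC (AT3G10670), a subunit of plastid iron-sulphur assembly, had a local minus systemic log2 difference of 0.42 (SE 0.16). RBCS1A (AT1G67090), the small subunit of Rubisco and one of the leaf markers, had one of 0.75 (SE 0.40). The edgeR interaction test gave both an adjusted p of 0.832, so neither passed. No ferritin gene showed this pattern. Of all 19403 genes tested, 803 had every Dox library above every control library in local leaves. In systemic leaves 1632 had every Dox library below every control library. How many genes showed both was not counted, so whether 2 is more than usual is not known. The 2 genes were picked for the pattern and are given as a description.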

How the results depend on the processing

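No ferritin gene passed an adjusted p of 0.05 in any alternative run: 0 of 312 values for FER1, FER3 and FER4, of which 15 changed sign, and 0 of 101 for FER2, of which 11 did. The cause of the changes below was not tested unless fewer libraries were used. In local leaves total-count scaling put FER4 at -0.08. Leaving out control local 3 and Dox local 1 put local FER1 at -0.65 and FER4 at -0.57 and the FER3 interaction at -0.27. Leaving out the 4 libraries at the positive end of the first component, chosen after seeing the data, put local FER1 at -0.28 and FER4 at -0.19, FER2 between positions of Dox plants at -0.12 and the FER3 interaction at -0.17. Total-count scaling put the FER2 and FER3 interactions at -0.10 each. That scaling put the median of all genes at -0.12 for Dox in local leaves and 0.11 in systemic leaves. It put the median at 0.31 between positions of Dox plants and -0.24 for the interaction. Upper-quartile scaling put the median at 0.14 between positions of Dox plants. The part of these shifts of all genes in the ferritin changes was not tested.

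When 1 library was left out, the log2 differences ran as follows. For Dox in local leaves they ran from -0.35 to 0.77 (FER1), -0.16 to 1.56 (FER2), 0.13 to 1.08 (FER3) and -0.30 to 0.45 (FER4). For Dox in systemic leaves they ran from 1.09 to 2.03, -0.25 to 1.15, 0.43 to 0.69 and 0.61 to 1.21. Between positions of control plants they ran from -0.67 to 0.29, -0.12 to 1.83, 0.28 to 0.67 and 0.15 to 0.79. Between positions of Dox plants they ran from 0.61 to 1.73, 0.02 to 1.18, -0.06 to 0.90 and 0.93 to 1.68. For the interaction they ran from -1.81 to -0.68, -0.71 to 1.24, -0.46 to 0.49 and -1.16 to -0.41.

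Over all genes edgeR called 0, 0, 0, 1 and 0 in the 5 comparisons (local Dox, systemic Dox, control position, Dox position, interaction) and DESeq2 called 14, 134, 53, 572 and 1. Leaving out 1 library gave 0 to 1 calls in systemic Dox and 0 to 13 in Dox position, and 0 in the others. The 4-library set gave 2 in systemic Dox. In control position, total-count scaling, upper-quartile scaling and no filter gave 1 each. In Dox position, total-count scaling, fitting only the groups compared, and leaving out both libraries gave 0, and the replicate block gave 2.

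With the column number as a replicate block the systemic Dox difference was 1.43 for FER1, 0.62 for FER3 and 0.95 for FER4 (edgeR adjusted p = 0.389, 0.57 and 0.399), and no ferritin call changed. The labels do not say that numbers pair the columns; deviations of columns with the same number correlated at -0.286 to 0.704 (median 0.101), and 8 of 12 columns correlated best with one of their own number. Of the other genes named, PRR7 (-2.33, Dox in systemic leaves) and, between positions of Dox plants, BTS (-1.39), BHLH101 (-2.01), IMA2 (-2.01) and MIT1 (0.62) passed in DESeq2 only. Local INDH stood at -0.06 in limma, at -0.03 without control local 3 and Dox local 1, and at -0.13 to 0.57 with single libraries left out. Local NEET stood at -0.43 without the 4-library set. With single libraries left out, systemic BHLH39 ran from -1.86 to 0.09 and NAS1 from -0.89 to 2.12. Depth limits FER2, with 79 reads in all, and 3 libraries a group limit the rest.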
